A study of Mus musculus with 18 samples.

Results

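The Notch receptors and their thymic target genes were followed across 18 mice. The set was chosen by name and holds 10 genes of the 18193 named on the array, measured by 20 of its 45101 probe sets: the receptors Notch1, Notch2 and Notch3, the glycosyltransferase Lfng, the nuclear components Rbpj and Maml1, and the target genes Ptcra, Hes1, Dtx1 and Nrarp. RNA came from tumour masses or thymocytes, with 1 Affymetrix array per mouse. A first group held 8 CD4Cre-ctnnbex3 mice with lymphoma. A second group held 5 mice of the same genotype that were sampled before T-cell transformation, and the last group held 5 controls, which the sample labels call wild type and the series' design text calls LckCre. In CD4Cre-ctnnbex3 mice the Cre recombinase is driven by Cd4 regulatory sequences, so the beta-catenin gene is altered in thymocytes that have reached Cd4 expression, and the product lacks the residues that mark it for degradation. No sorting is described, so each array averages over the cells of a thymocyte preparation or of a tumour mass, and these materials can differ in the other cells they hold. The sources used here give neither age nor strain.

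Notch receptors are cut in the membrane after a ligand on a neighbouring cell binds them, and the freed intracellular part enters the nucleus, where it joins the DNA-binding protein RBPJ and a Mastermind coactivator such as MAML1 to switch on target genes. In the thymus, Notch1 signalling commits progenitors to the T lineage and carries them through the beta-selection checkpoint, after which signalling normally drops. Ptcra, Hes1, Dtx1 and Nrarp are widely used as readouts of that signal, and activating mutations of Notch1 are common in T-cell leukaemia.

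In GRCm38.p6 the receptor genes lie at chr2:26457902-26503822 (Notch1), chr3:98013538-98150367 (Notch2) and chr17:32120820-32166896 (Notch3). Lfng lies at chr5:140607341-140615545, Rbpj at chr5:53555779-53657445 and Maml1 at chr11:50255634-50293131. The target genes lie at chr17:46755663-46763712 (Ptcra), chr16:30065357-30067796 (Hes1), chr5:120680203-120711867 (Dtx1) and chr2:25180758-25183339 (Nrarp). Promoters are shown for the genes with the largest differences (Notch1, Ptcra and Lfng) and for Nrarp as a target gene that passed no test over all mice. Each runs from 250 bases before to 50 bases after the annotated start, in RefSeq's GRCm38.p6, 5′ to 3′ on the gene's strand. RefSeq promoters were found for 9 of the 10 genes, the exception being Hes1. Capitals mark matches to TGGGAA, the core of the RBPJ site, on either strand.
Notch1, chr2:26503773-26504072, minus strand: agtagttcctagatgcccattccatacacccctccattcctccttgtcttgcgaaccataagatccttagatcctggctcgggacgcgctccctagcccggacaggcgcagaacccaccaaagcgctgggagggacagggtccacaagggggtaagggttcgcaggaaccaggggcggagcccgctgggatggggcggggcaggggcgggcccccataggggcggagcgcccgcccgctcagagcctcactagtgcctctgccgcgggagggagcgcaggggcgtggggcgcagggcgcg
Ptcra, chr17:46763663-46763962, minus strand: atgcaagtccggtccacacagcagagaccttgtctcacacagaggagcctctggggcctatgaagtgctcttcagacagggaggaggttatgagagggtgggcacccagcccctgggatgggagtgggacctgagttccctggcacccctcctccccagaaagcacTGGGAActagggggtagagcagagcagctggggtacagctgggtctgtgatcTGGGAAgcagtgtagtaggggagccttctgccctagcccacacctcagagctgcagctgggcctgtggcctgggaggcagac
Lfng, chr5:140607091-140607390, plus strand: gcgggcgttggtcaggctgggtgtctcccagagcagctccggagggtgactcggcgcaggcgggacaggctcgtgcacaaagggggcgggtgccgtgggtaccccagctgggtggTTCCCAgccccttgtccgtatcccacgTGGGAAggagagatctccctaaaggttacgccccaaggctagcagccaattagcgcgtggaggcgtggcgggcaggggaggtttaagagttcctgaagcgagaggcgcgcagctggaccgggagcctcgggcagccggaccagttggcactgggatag
Nrarp, chr2:25180508-25180807, plus strand: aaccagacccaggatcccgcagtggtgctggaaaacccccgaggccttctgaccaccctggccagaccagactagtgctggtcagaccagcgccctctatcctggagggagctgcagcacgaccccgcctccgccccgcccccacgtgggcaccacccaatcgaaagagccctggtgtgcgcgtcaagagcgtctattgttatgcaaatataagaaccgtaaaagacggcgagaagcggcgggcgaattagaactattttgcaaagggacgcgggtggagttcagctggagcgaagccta

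Ptcra had 2 such matches, starting at -84 and -32 from the start site, and Lfng had 2, at -135 and -108. Rbpj was the only other gene of the set with a match, so 3 of 9 had it, where 25.6% of all 32851 mouse promoters of this length did. The TCF/LEF core CTTTGA, searched the same way, was found only in Maml1 among these promoters (16.0% of all promoters), and CAGGTG, an E-box bound by E proteins, only in Rbpj (20.2%). The letters say nothing about whether a factor binds there.

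Signals are the authors' linear dChip probe-set intensities, which have no detection calls. Blank or low values were set to a floor of 53.5, the 20th percentile, and tests were made on log2 signal. Mice at the floor cannot be ranked among themselves. Where most of a group was there, the difference is a lower limit and is written with "at least". Array medians lay between 125 and 166. Genes with several probe sets are described first by the brightest one, called the main probe set. A gene is said to rise or fall where limma's adjusted p over 24364 probe sets was under 0.05. Mice numbered 1 and 2 and mice numbered 3 and up form sets that differed in several genes here, and values within each set are given beside the main probe sets whose call they change. Above a signal of 200, Xist without the Y-linked Eif2s3y was seen in 6 lymphomas, no mouse before transformation and 2 controls (numbers 1 and 2), Eif2s3y without Xist in 1, 5 and 3, and both in lymphoma 4. Without lymphoma 4, 4 and 6 of the 10 genes passed in the comparisons of lymphomas with mice before transformation and with controls, the same counts as with it.

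Notch1, the receptor that acts in early T-cell development, had a far lower signal in both CD4Cre-ctnnbex3 groups than in controls. In lymphomas its signal was at the floor in 5 of 8 tumours and reached 83.9, 103 and 88.8 in lymphomas 3, 4 and 8. Before transformation it was 581, 575, 729, 475 and 602, and in controls it was 2514, 2551, 2403, 2283 and 2215. The 3 groups did not overlap at any point. On the log2 scale the means were 6.03 ± 0.41 (SD, n = 8) in lymphomas, 9.20 ± 0.22 (n = 5) before transformation and 11.22 ± 0.09 (n = 5) in controls. Notch1 thus fell by 2.03 ± 0.11 (SE) before transformation against control, or 4.07-fold (limma adjusted p = 4.36e-07). In lymphomas it was at least 8.97-fold lower than before transformation (limma adjusted p = 1.73e-07) and at least 36.5-fold lower than in controls (limma adjusted p = 5.07e-11). A second Notch1 probe set gave the same order, with 53.5 to 119 (median 70.5) in lymphomas, 297 to 469 before transformation and 1168 to 1581 in controls. By that probe set Notch1 was 4.81-fold lower in lymphomas than before transformation and 17.6-fold lower than in controls (limma adjusted p = 3.8e-06 and 1.5e-09), with 2 of 8 tumours at the floor.

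**Figure D1:**
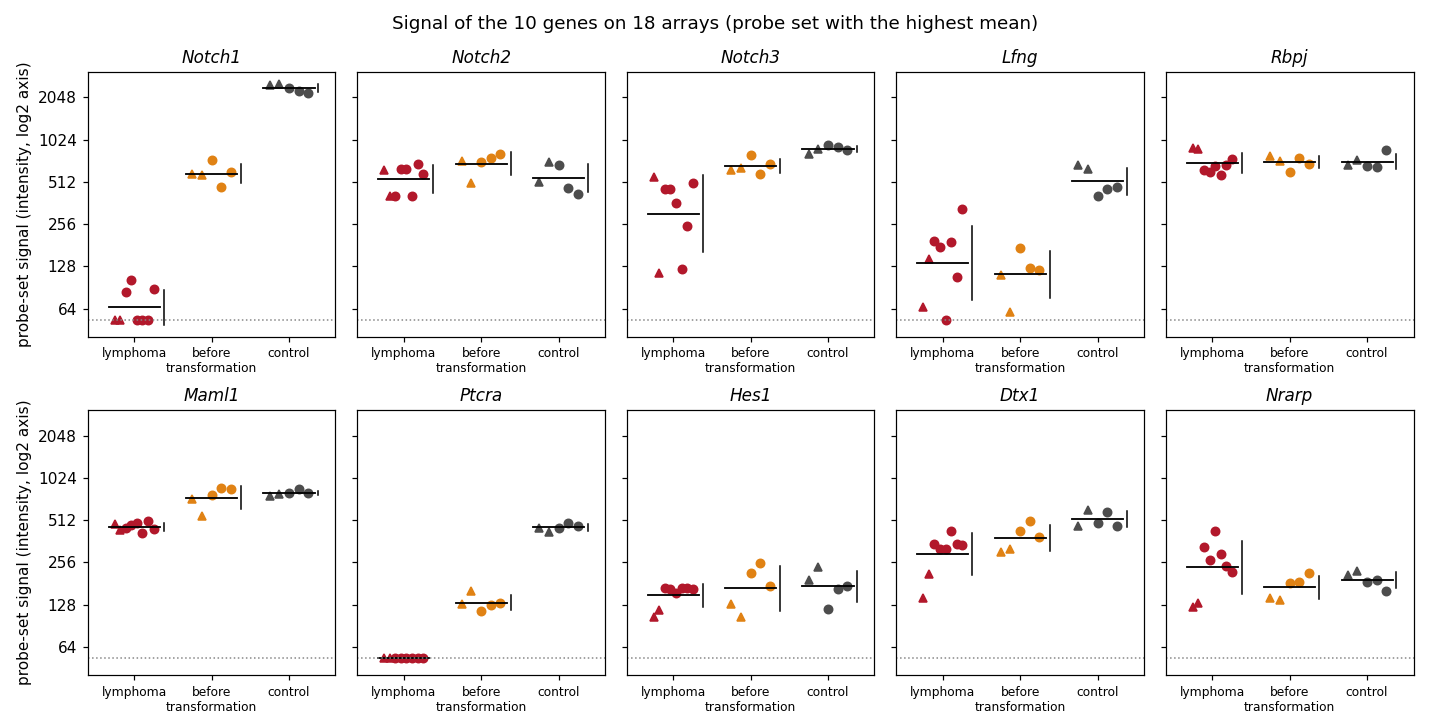
Probe-set signal (log2 axis, arrays' linear intensity) of the 10 genes in 8 lymphomas, 5 mice before transformation and 5 controls, 1 point per mouse, with triangles for mice numbered 1 and 2 and circles for the others. Horizontal bars are means of log2 signal, vertical bars 1 SD, and the dotted line is the floor of 53.5; Notch1 steps down in 3 separate groups, and all 8 lymphomas lie at the floor for Ptcra.

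Notch3 is a receptor that thymocytes express around beta-selection and that can itself drive T-cell leukaemia in mice when its active form is overexpressed. It was also lower, and tumours differed widely by its main probe set. Its signal was 551, 115, 455, 454, 361, 124, 250 and 502 in lymphomas 1 to 8. It was 623, 647, 792, 583 and 687 before transformation, and 811, 874, 933, 907 and 865 in controls. Again no value was shared between groups, but lymphomas 2 and 6 stood far below the other 6, and the SD of log2 signal was 0.91 in lymphomas against 0.17 before transformation and 0.08 in controls. Notch3 fell by 0.40 ± 0.09 before transformation against control (1.32-fold, limma adjusted p = 0.0145), fell by 1.12 ± 0.37 in lymphomas against before transformation (limma adjusted p = 0.0261) and fell by 1.53 ± 0.36 in lymphomas against control (2.88-fold, limma adjusted p = 0.00364). The first difference did not pass within mice 1 and 2 or within mice 3 and up (limma adjusted p = 0.0730 and 0.0963) nor in a fit of all 3 groups with a shared spread (0.694). The second did not pass within either set (0.223 and 0.0550), nor without before transformation 3 (0.0596) or 5 (0.0548), nor with no filter on low signal (0.0598). The third did not pass within mice 1 and 2 (0.130). With the other Notch3 probe set, lymphomas at 220 to 342 were 1.64-fold below controls at 402 to 476 (limma adjusted p = 0.000164), and neither of the comparisons with mice before transformation passed. Lymphomas 2 and 6 did not stand apart by that probe set, at 280 and 291 beside a lymphoma median of 277. The SD of its log2 signal in lymphomas was 0.19.

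Notch2, the receptor best known for its part in marginal zone B-cell development, gave no coherent picture. With the main probe set its signal was 406 to 682 (median 606) in lymphomas, 501 to 806 (median 726) before transformation and 421 to 709 (median 510) in controls, and the groups overlapped. No difference passed, at 0.34 ± 0.17 before transformation against control, -0.37 ± 0.17 in lymphomas against before transformation and -0.03 ± 0.18 in lymphomas against control (limma adjusted p = 0.279, 0.106 and 0.924). The sign of the last turned under quantile normalization and under centring. The second Notch2 probe set was at 398 to 658 (median 585) in lymphomas, 251 to 439 before transformation and 344 to 461 in controls, and it rose by 0.68 ± 0.17 and by 0.48 ± 0.13 in lymphomas (limma adjusted p = 0.00544 and 0.0100). The probe sets of Notch2 thus disagreed.

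Lfng, which extends fucose on Notch receptors in the Golgi and in thymocytes strengthens their response to Delta-like ligands, was low in both CD4Cre-ctnnbex3 groups. Its signal ranged from the floor, reached in 1 tumour, to 331 (median 161) in lymphomas. It was 111, 60.5, 174, 126 and 121 before transformation, and 672, 628, 407, 454 and 467 in controls. Controls lay above every other mouse, while lymphomas and mice before transformation overlapped. Lfng fell by 2.20 ± 0.25 before transformation against control (4.59-fold, limma adjusted p = 0.000143) and fell by 1.92 ± 0.36 in lymphomas against control (3.79-fold, limma adjusted p = 0.000685). Lymphomas differed from mice before transformation by 0.28 ± 0.39 (limma adjusted p = 0.609). A second Lfng probe set was blank on 16 arrays and was not tested.

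The nuclear components moved little by comparison. Rbpj, the DNA-binding partner of all Notch receptors, had signals of 575 to 889 (median 671) in lymphomas, 600 to 788 (median 725) before transformation and 651 to 869 (median 679) in controls, and its log2 differences were -0.01 ± 0.11, -0.02 ± 0.13 and -0.03 ± 0.13 for before transformation against control, lymphoma against before transformation and lymphoma against control (limma adjusted p = 0.976, 0.907 and 0.860). Of its other probe sets 1 fell in lymphomas against control, by 0.34 ± 0.12 (limma adjusted p = 0.0401). Maml1, the Mastermind coactivator, was at 414 to 502 (median 462) in lymphomas. It was at 722, 546, 776, 863 and 846 before transformation, and at 764, 792, 800, 847 and 797 in controls. Every lymphoma lay below every other mouse. Maml1 fell by 0.69 ± 0.12 in lymphomas against before transformation (1.61-fold, limma adjusted p = 0.000475) and fell by 0.80 ± 0.09 against control (1.74-fold, limma adjusted p = 5.26e-06), with -0.11 ± 0.12 before transformation against control (limma adjusted p = 0.685). The other 2 Maml1 probe sets passed in no comparison: in lymphomas against control they gave -0.05 ± 0.12 and -0.16 ± 0.23, so the fall rests on 1 of 3 probe sets. Within mice 1 and 2 the main probe set gave -0.45 in lymphomas against before transformation and did not pass (limma adjusted p = 0.141).

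Ptcra, which encodes the invariant partner of the T-cell receptor beta chain at beta-selection, followed Notch1. All 8 lymphomas were at the floor. Before transformation its signal was 130, 161, 116, 128 and 131, and in controls it was 453, 424, 449, 492 and 465. The groups did not overlap, and the spread among lymphomas is not known, since all lay at the floor. Ptcra fell by 1.78 ± 0.11 before transformation against control (3.45-fold, limma adjusted p = 1.34e-06), and lymphomas were at least 2.47-fold below mice before transformation and at least 8.52-fold below controls (limma adjusted p = 2.69e-06 and 1.17e-11). The floor gave the lymphomas an SD of 0 in both tests with them, so those 2 p-values do not reflect the true spread among tumours. Ptcra has a single probe set, and it passed under every alternative run in all 3 comparisons.

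Hes1, a transcriptional repressor and direct Notch target that leukaemic T cells need, had signals of 105 to 170 (median 165) in lymphomas. Its signals were 130, 105, 216, 255 and 175 before transformation, and 192, 238, 119, 165 and 174 in controls. The groups overlapped throughout and no difference passed: -0.05 ± 0.25 before transformation against control, -0.16 ± 0.21 in lymphomas against before transformation and -0.21 ± 0.17 in lymphomas against control (limma adjusted p = 0.949, 0.570 and 0.349). Dtx1, which encodes the ubiquitin ligase Deltex, was at 143 to 427 (median 331) in lymphomas. It was at 304, 317, 430, 504 and 389 before transformation, and at 464, 608, 492, 590 and 466 in controls. Every lymphoma was below every control for Dtx1, which fell by 0.83 ± 0.22 in that comparison (1.77-fold, limma adjusted p = 0.00726), while -0.45 ± 0.15 before transformation against control and -0.38 ± 0.23 in lymphomas against before transformation did not pass (limma adjusted p = 0.0884 and 0.215). In a fit that blocks on the sets of mouse numbers the last was -0.50 and passed (limma adjusted p = 0.00737). A second Dtx1 probe set went the other way: it was at 230 to 339 in lymphomas, 146 to 234 before transformation and 167 to 242 in controls, and rose by 0.61 ± 0.14 and 0.59 ± 0.12 in lymphomas (limma adjusted p = 0.00338 and 0.00141). Nrarp, a feedback inhibitor that binds the intracellular part of Notch, was at 123, 131, 329, 269, 431, 294, 242 and 220 in lymphomas 1 to 8. It was at 144, 138, 184, 185 and 215 before transformation, and at 208, 224, 187, 191 and 159 in controls. Its differences of -0.17 ± 0.15, 0.47 ± 0.27 and 0.29 ± 0.26, in the order used for Rbpj, did not pass (limma adjusted p = 0.586, 0.193 and 0.394), and its second, dimmer probe set passed in none.

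**Figure D2:**
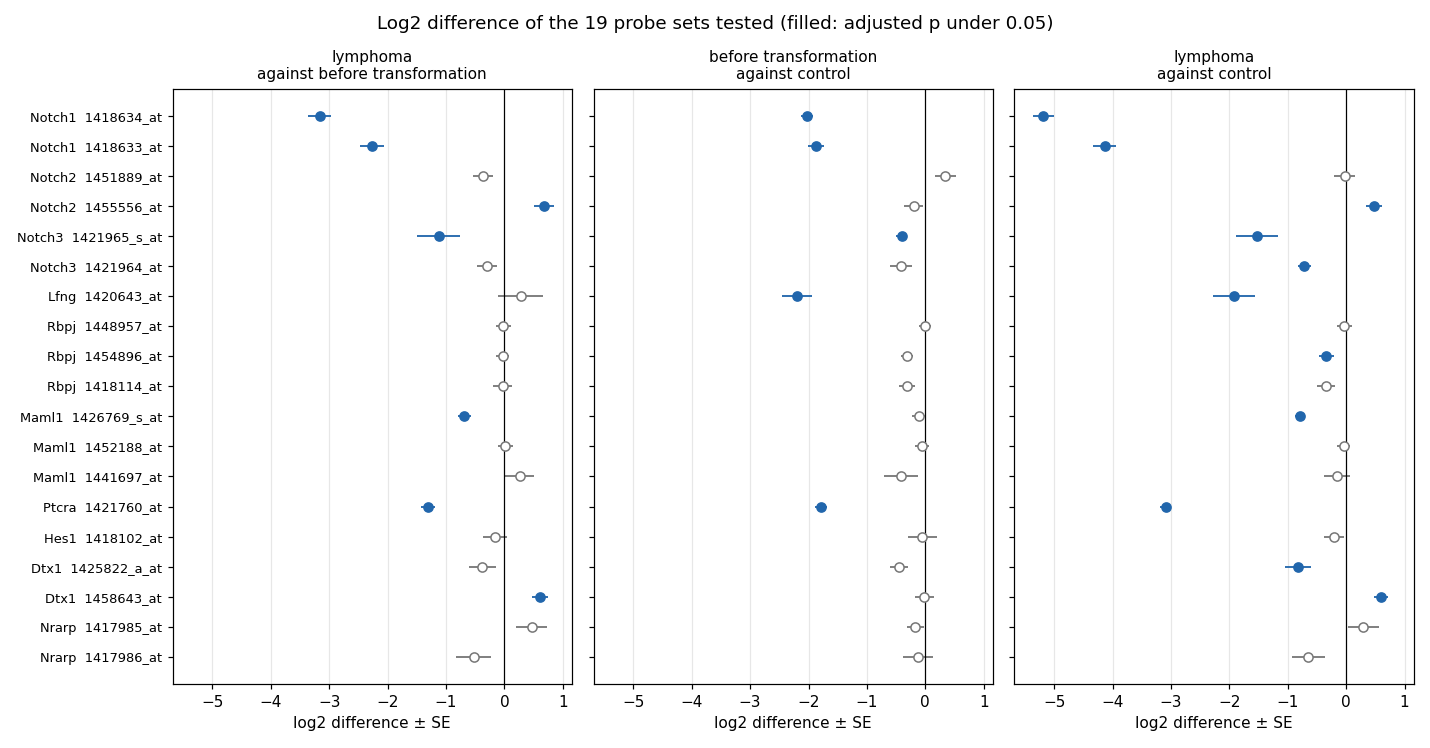
Log2 difference (x axis, with SE) of each of the 19 probe sets tested, for lymphomas against mice before transformation, mice before transformation against controls, and lymphomas against controls; filled points had a limma adjusted p under 0.05. Both Notch1 probe sets and Ptcra lie far to the left in each panel (for Ptcra and the main Notch1 probe set in lymphomas these are lower limits of the size), whereas the probe sets of Notch2 and of Dtx1 lie on opposite sides of 0 in lymphomas against mice before transformation.

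Among the 10 genes, 4 fell and none rose before transformation against control: Notch1, Notch3, Lfng and Ptcra. Of all probe sets tested, 6.73% fell and 4.77% rose there. In lymphomas against before transformation, 4 fell (Notch1, Notch3, Maml1 and Ptcra) and none rose, where 20.2% of all probe sets fell and 16.0% rose. In lymphomas against control, 6 fell (Notch1, Notch3, Lfng, Maml1, Ptcra and Dtx1) and none rose, where 23.9% fell and 16.9% rose. Taken in either direction, 11.5%, 36.2% and 40.9% of all probe sets passed, beside 4, 4 and 6 of the 10 genes. The count in lymphomas against before transformation is thus close to the share of all probe sets. The values of 4, 4 and 6 of the 10 genes did not overlap between the groups of these comparisons, against 10.9%, 16.7% and 20.4% of all probe sets. The median log2 difference of the 10 genes was -0.29, -0.37 and -0.81, beside -0.02, -0.04 and -0.05 over all probe sets. Counted as probe sets, 5, 5 and 9 of 19 fell, and 0, 2 and 2 rose, those that rose being the second probe sets of Notch2 and Dtx1. The comparisons share their groups and are not independent of each other. After quantile normalization the median of all probe sets in lymphomas against control was 0.06 in place of -0.05, and the calls over all probe sets were 5932 higher and 4786 lower in place of 4125 higher and 5830 lower. For lymphomas against before transformation they were 5415 higher and 4296 lower in place of 3902 and 4923. With arrays centred on their medians they were 4586 higher and 3819 lower in that comparison, and 5086 higher and 4490 lower in lymphomas against control. The numbers of the 10 genes that fell were 4, 4 and 6 after quantile normalization too.

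By their main probe sets, Hes1, Dtx1 and Nrarp were lower in mice numbered 1 and 2 than in the rest of both CD4Cre-ctnnbex3 groups. For Nrarp, lymphomas 1 and 2 had signals of 123 and 131, against 208 and 224 in controls 1 and 2, whereas lymphomas 3 to 8 had 220 to 431, against 159 to 191 in controls 3 to 5. Within mice 1 and 2 Nrarp fell by 0.77 in lymphomas against control (limma adjusted p = 0.0279), and within mice 3 and up it rose by 0.70 (limma adjusted p = 0.0179). The difference between these effects was 1.47 ± 0.31 (limma adjusted p = 0.0342 for the interaction). The second Nrarp probe set, at the floor in 4 of 8 lymphomas, did not show it: it gave -0.79 within mice 1 and 2 and -0.70 within mice 3 and up (limma adjusted p = 0.0279 and 0.152), with an interaction of 0.09 ± 0.58 (0.942). In lymphomas against before transformation, within mice 3 and up, the main probe set of Nrarp rose by 0.58 (limma adjusted p = 0.0375) and Hes1 fell by 0.36 (0.0372), and neither passed within mice 1 and 2 (0.585 and 0.827). For Hes1, lymphomas 1 and 2 had signals of 105 and 117, against 192 and 238 in controls 1 and 2, while lymphomas 3 to 8 had 154 to 170, against 119 to 174 in controls 3 to 5. Hes1 fell by 0.94 within mice 1 and 2 (limma adjusted p = 0.0240) and differed by 0.13 within mice 3 and up (0.447), with an interaction of 1.08 ± 0.23 (limma adjusted p = 0.0339). Dtx1 fell by 1.61 within mice 1 and 2 and fell by 0.56 within mice 3 and up (limma adjusted p = 0.0113 and 0.00606), and its interaction missed the threshold (1.05 ± 0.26, limma adjusted p = 0.0505). The second Dtx1 probe set did not show it. That probe set rose by 0.74 within mice 1 and 2 and by 0.50 within mice 3 and up (limma adjusted p = 0.0224 and 0.0264). Its interaction was -0.24 ± 0.24 (limma adjusted p = 0.568). Of the 19 probe sets 2, for Nrarp and Hes1, passed the interaction in lymphomas against control, where 3.07% of all probe sets did. None of the 19 passed it before transformation against control (0.509% of all) or in lymphomas against before transformation (2.97%). At an unadjusted limma p under 0.05 Nrarp, Hes1, Lfng, Notch3, Dtx1 and Rbpj each had a probe set before transformation against control. Nrarp and Notch3 did in lymphomas against before transformation, and Nrarp, Hes1, Dtx1, Notch1 and Rbpj did in lymphomas against control. For Notch1 this was the second probe set, with an interaction of 1.01 ± 0.32 (limma unadjusted p = 0.00771). The share of all probe sets at that threshold is not given here. Notch1 and Ptcra fell within both sets in all 3 comparisons. What the mouse numbers stand for is not given in the sources used here, and their part in these results was not tested.

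**Figure D3:**
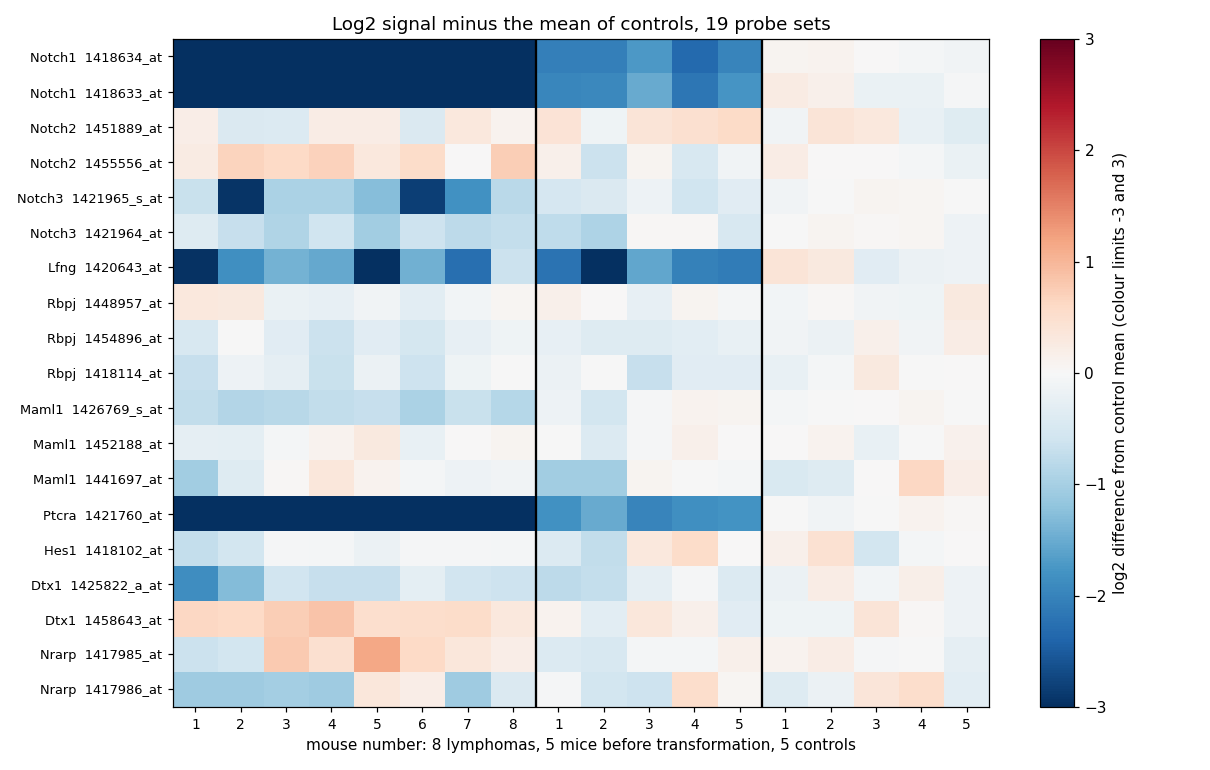
Log2 signal of the 19 probe sets (rows) on 18 arrays (columns, by mouse number: 8 lymphomas, 5 mice before transformation, 5 controls), as the difference from the mean of controls, red above and blue below, with colours ending at -3 and 3. Notch1 and Ptcra are blue in every CD4Cre-ctnnbex3 mouse, the main Notch3 probe set is darkest in lymphomas 2 and 6, and Hes1 and the main probe sets of Dtx1 and Nrarp are bluer in lymphomas 1 and 2 than in the other tumours.

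Markers of the cells present were set beside these falls. All 6 measured T-lineage markers (Cd3d, Cd3e, Cd3g, Thy1, Ptprc and Cd247) fell in lymphomas against control, with a median log2 difference of -1.45, and their summed signal was 11416 to 19697 in lymphomas, 27649 to 37817 before transformation and 35030 to 37928 in controls. All 8 double-positive markers measured, among them Cd4, Cd8a and Rag1, fell too, with a median of -1.98. Their sums were 8577 to 18082 in lymphomas, 31359 to 49750 before transformation and 41352 to 42842 in controls. In bulk tissue, fewer cells of a type and less RNA per cell cannot be told apart. Before transformation against control the double-positive list split, with 1 of 8 higher and 2 lower and a median of -0.11, and 3 of 6 T-lineage markers fell (median -0.32), where Notch1, Lfng and Ptcra differed by -2.03, -2.20 and -1.78. Of 7 double-negative markers 1 fell there, Il2ra, and none rose. In lymphomas against control 2 of the 7 rose and 1 fell, or 42.9% that passed, where 40.9% of all probe sets did. Over all probe sets 4.77% rose and 6.73% fell before transformation against control, and 16.9% rose and 23.9% fell in lymphomas against control. Single-positive markers fell in 3 of 5 (Ccr7, S1pr1 and Klf2) and in 5 of 5 in these comparisons, with median log2 differences of -1.30 and -1.13. Lymphoma 6, with a Notch3 signal of 124 by the main probe set, had the lowest T-lineage sum (11416). Lymphoma 2, with a Notch3 signal of 115 by that probe set, had 17661, close to the median of 17860. Neither tumour was low by the other Notch3 probe set.

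Markers of other cells moved as well. Of 7 myeloid markers 5 rose and 2 fell in lymphomas against control, with sums of 4668 to 16363 in lymphomas, 2931 to 4856 before transformation and 2717 to 3780 in controls. The sums of 6 B-cell markers were 633 to 5417 in lymphomas, 594 to 2644 before transformation and 1056 to 1350 in controls, with 1 of 6 rising in lymphomas against control. Those of 7 fibroblast and mural markers were 869 to 5199 in lymphomas, 823 to 1545 before transformation and 789 to 903 in controls, with 3 of the 5 tested rising. None of 3 endothelial markers tested passed in any comparison, with sums over 5 of 691 to 1051 in lymphomas, 794 to 1128 before transformation and 866 to 1048 in controls. Of 6 thymic epithelial markers 2, Foxn1 and Ccl25, fell in lymphomas against control, with sums of 1059 to 1478 in lymphomas, 1215 to 2886 before transformation and 1247 to 2050 in controls. In lymphomas against control 40.9% of all probe sets passed, beside 16.7% of the B-cell and 33.3% of the thymic epithelial markers, which is no more than that share. Tagln was at the floor on every array and Pdgfrb in every mouse before transformation; no other marker was at the floor throughout a group. The part of these cells in the results for the Notch genes was not tested.

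Other genes of the pathway were read from a list of 49, of which 41 had a tested probe set. Before transformation against control 4 rose and 4 fell (median -0.04), in lymphomas against before transformation 7 rose and 8 fell (median -0.11), and in lymphomas against control 9 rose and 14 fell (median -0.17). Over all probe sets 4.77% rose and 6.73% fell in the first of these, 16.0% and 20.2% in the second, where the list's counts are close to those shares, and 16.9% and 23.9% in the last. Of 4 ligands tested, only Jag2 passed: it rose by 0.49 ± 0.14 in lymphomas against before transformation and by 0.59 ± 0.11 against control (limma adjusted p = 0.0125 and 0.000757). Dll4, the thymic epithelial ligand of Notch1, differed by -0.31 ± 0.14 in lymphomas against control (limma adjusted p = 0.0887). Among 12 genes for processing and glycosylation, 1 rose and 1 fell before transformation against control: Adam17, a protease that can cut Notch at the cell surface, rose by 0.67 ± 0.14 (limma adjusted p = 0.0100), and Mfng, a relative of Lfng, fell by 0.88 ± 0.15 (limma adjusted p = 0.00250). Mfng signals were 334 to 631 in lymphomas, 210 to 392 before transformation and 461 to 494 in controls, so it was higher again in tumours, by 0.79 ± 0.20 against before transformation (limma adjusted p = 0.00596). Adam17 fell by 0.87 ± 0.19 in lymphomas against before transformation (limma adjusted p = 0.00284). Against control it differed by -0.19 ± 0.21 in lymphomas and did not pass (limma adjusted p = 0.482). In lymphomas against control 2 of these 12 rose and 4 fell.

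Of 5 nuclear partners 1 rose and 3 fell in lymphomas against control, where 16.9% of all probe sets rose and 23.9% fell. Kat2b, a histone acetyltransferase that joins the Notch complex, had signals of 228 to 483 in lymphomas, 723 to 855 before transformation and 799 to 956 in controls, and fell by 1.23 ± 0.16 in lymphomas against before transformation (limma adjusted p = 7.25e-05) and fell by 1.38 ± 0.16 against control (limma adjusted p = 1.27e-05). Spen, a corepressor of RBPJ, fell by 0.86 ± 0.11 (limma adjusted p = 2.29e-05). Of 7 turnover genes, Fbxw7, the ubiquitin ligase subunit that marks intracellular Notch and Myc for destruction, changed in opposite directions. Its signals were 211 to 536 (median 400) in lymphomas, 859 to 1265 (median 1175) before transformation and 527 to 588 (median 560) in controls. Fbxw7 rose by 0.96 ± 0.12 before transformation against control (1.94-fold, limma adjusted p = 0.000259) and fell by 1.51 ± 0.22 in lymphomas against before transformation (2.85-fold, limma adjusted p = 0.00012).

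Among 13 further genes known as Notch targets, 2 rose and 2 fell before transformation against control, and 4 rose and 4 fell in lymphomas against control. Of all probe sets 4.77% rose and 6.73% fell in the first of these comparisons, and 16.9% rose and 23.9% fell in the second. Il2ra, a chain of the interleukin 2 receptor and a marker of double-negative thymocytes, had signals of 93.3 to 124 before transformation, against 168 to 440 in controls, and fell by 1.22 ± 0.28 (limma adjusted p = 0.0147). Controls 1 and 2 were at 397 and 440, and controls 3 to 5 at 178, 168 and 174, so the size of the fall depends on the controls used. Controls 1 and 2 showed Xist, whereas controls 3 to 5 and all mice before transformation showed Eif2s3y. Sex and mouse number therefore cannot be told apart among these controls. Myc, a direct target of Notch1 and also of beta-catenin with TCF factors, had signals of 1250 to 2489 (median 1906) in lymphomas, 132 to 517 (median 199) before transformation and 437 to 488 (median 467) in controls. Myc fell by 1.08 ± 0.29 before transformation against control (limma adjusted p = 0.0325), rose by 3.02 ± 0.26 in lymphomas against before transformation (limma adjusted p = 2.59e-06) and rose by 1.94 ± 0.14 in lymphomas against control (limma adjusted p = 1.08e-07). Gfi1, a transcriptional repressor of early thymocytes, rose by 0.67 ± 0.12 before transformation against control (limma adjusted p = 0.00333). Cdkn1a, a cell-cycle inhibitor, rose by 2.55 ± 0.47 in lymphomas against control (limma adjusted p = 0.000606), with signals of 257 to 1483 in lymphomas, 108 to 299 before transformation and 104 to 188 in controls. Against mice before transformation Cdkn1a rose by 2.10 ± 0.49 (limma adjusted p = 0.00401). Ccnd3, the D-type cyclin of pre-T cells, fell by 1.59 ± 0.36 (limma adjusted p = 0.00243), with signals of 604 to 4602 in lymphomas, 6146 to 8930 before transformation and 6776 to 7776 in controls. Against mice before transformation Ccnd3 fell by 1.70 ± 0.36 (limma adjusted p = 0.00226). Hes5, a relative of Hes1, rose by 0.70 ± 0.10 (limma adjusted p = 0.000108), at 179 to 250 in lymphomas, against 126 to 133 in controls.

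**Figure D4:**
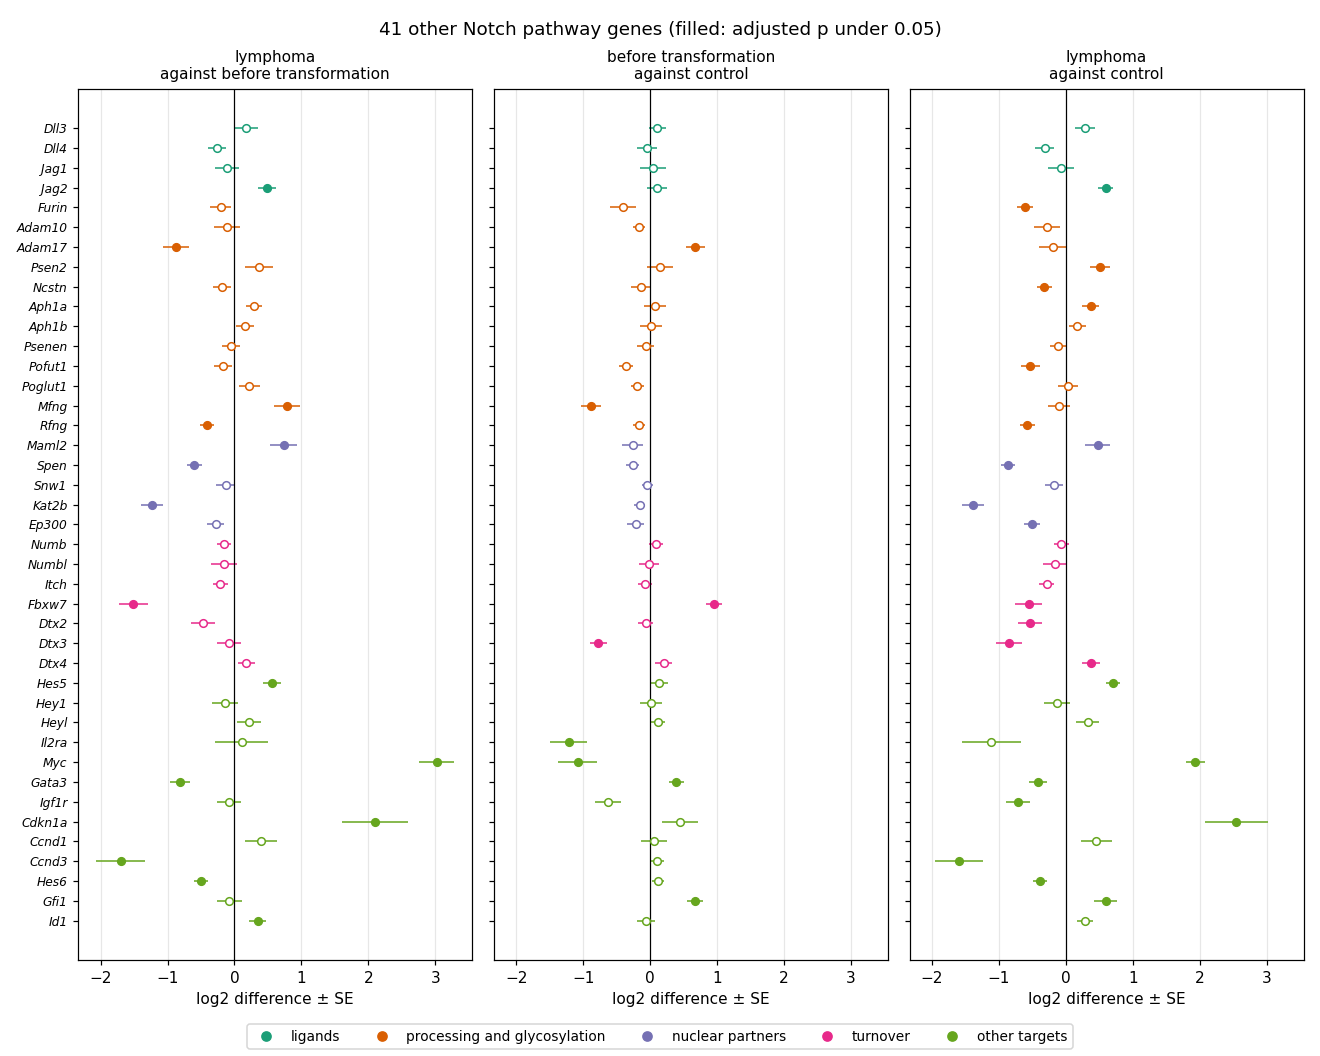
Log2 difference (x axis, with SE) of 41 other Notch pathway genes, coloured by role, for lymphomas against mice before transformation, mice before transformation against controls, and lymphomas against controls; filled points had a limma adjusted p under 0.05. Fbxw7 lies right of 0 before transformation against control and left of 0 in both panels with lymphomas, and Myc lies left of 0 before transformation and right of 0 in both panels with lymphomas.

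The genes whose profile over the 18 arrays lay nearest to that of a member were found by the root mean square difference of log2 signals, each centred on its own mean, among 14019 genes. Nearest to Notch1, whose own SD over the arrays was 2.23, were Abi3 (0.64), the nicotinic receptor subunit gene Chrna9 (0.64) and Ramp1 (0.67). Nearest to Ptcra (SD 1.28) were the potassium channel gene Kcnh2 (0.34), the netrin gene Ntn1 (0.34) and Dnajc6 (0.34), of which Kcnh2 and Dnajc6 were also at the floor in all 8 lymphomas. Nearest to Lfng (SD 1.11) was Fxyd5 (0.43), which like Lfng had similar means in lymphomas and before transformation (9.51 and 9.14 on the log2 scale) and a higher one in controls (10.94), followed by Ifi27l2b (0.49) and Celsr1 (0.50). Nearest to Notch3 (SD 0.88) were the lymphocyte GTPase gene Gimap6 (0.46), Esyt2 (0.47) and the survival gene Bcl2 (0.49). For the remaining 6 genes, whose SDs were 0.19 to 0.50, the distances of the 3 nearest profiles were 0.12 to 0.23. They were those of Olfr16, Dclre1a and BC006965 for Notch2, Pex13, Unc50 and Sec23ip for Rbpj, Zhx3, Cic and Psd4 for Maml1, Rilp, Sptlc2 and Klhl13 for Hes1, 2310001H17Rik, Itga5 and Itpr3 for Dtx1, and Dlg2, Emp1 and Gpt for Nrarp.

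Whether tumours with more Notch1 signal had more signal of the other genes could hardly be asked, since Notch1 was at the floor in 5 of 8 lymphomas and Ptcra in all 8. Of the other 8 genes none passed, and none had an unadjusted p under 0.05 by exact permutation test of Pearson's r, two-sided. The largest coefficient was that of Lfng (r = 0.65, exact permutation p = 0.0923, adjusted p = 0.631; Spearman's rho = 0.65, exact permutation p = 0.0893, adjusted p = 0.714; n = 8). It was 0.49 without lymphomas 4 and 8, the 2 tumours farthest from the Notch1 median. Only lymphoma 3 then lay above the Notch1 floor, so this value sets 1 tumour against 5 tied ones. The coefficient of Lfng was 0.64 in lymphomas 3 to 8, where Notch3 had a larger one (0.74, against 0.56 in all 8).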

How the data were processed

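Thymocyte or tumour RNA of 18 mice was hybridized to Affymetrix mouse arrays. The authors used dChip (series design text) and deposited 1 linear intensity per probe set and array. Its version, model and scaling are not stated in what was used here. Of 811818 values 1.20% were blank, none of them on the array of control 1, which held 605 of the 606 values below 0. Blank and low values were set to the 20th percentile and log2 was taken. Gene names come from the platform annotation (34945 with 1 symbol, 932 with several, 9160 with none, the last kinds not used), and gene positions come from RefSeq. The 24364 probe sets above the 40th percentile (109) on at least 5 arrays were tested with limma 3.58.1 in R 4.3.3, each comparison on its own 2 groups, with an intensity trend and Benjamini-Hochberg adjustment over all of them. The number of mice limits the precision. The design text calls the mice independent.

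The 10 genes, the lists and the tests were chosen with earlier results of these data known. Named are all members, from all pathway lists pooled the largest changes that passed (up to 3 per direction and comparison), and the 3 genes nearest in profile to members; Jag2, Dll4 and the marker genes were named outside that rule. Same-numbered mice did not deviate together throughout (correlations of -0.11 to 0.39), so numbers were not treated as pairs. The fit was first tested on simulated data. Protein and probe sequences were not used here.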

Additional observations from a re-analysis of the deposited data

Results flagged for a closer look

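Before transformation 2 had the lowest Notch2 signal of its group by the main probe set, 501 against 709 in the next mouse, a gap of 0.731 of the group's range. It was the single such array among 56 groups of values examined, where chance flags about 1 in 20. Without it, Notch2 differed by -0.49 in lymphomas against before transformation and passed (limma adjusted p = 0.0385).

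The change of Nrarp in lymphomas against control differed between mice 3 and up and mice 1 and 2 by 1.47 ± 0.31 on the log2 scale, with opposite directions in the 2 sets. This rests on 1 of 2 probe sets: the second gave -0.70 in mice 3 and up and -0.79 in mice 1 and 2. That of Hes1 differed by 1.08 ± 0.23. In mice 1 and 2 the lymphomas and controls all showed Xist without Eif2s3y, while among mice 3 and up the controls showed Eif2s3y and most lymphomas Xist. Among controls sex and mouse number thus split the same way and cannot be told apart. The part of sex and of mouse number was not tested.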

How the results depend on the processing

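Notch1 and Ptcra passed in the same direction in all 3 comparisons under every alternative run, as did Lfng in both comparisons with control and Maml1 and Dtx1 in lymphomas against control. Every alternative used the main probe sets only. It therefore cannot settle the disagreement among probe sets of Maml1, whose others did not pass, and of Dtx1, whose second rose. Leaving out 1 mouse gave 4 to 5, 3 to 5 and 6 to 6 of the 10 genes before transformation against control, in lymphomas against before transformation and in lymphomas against control, and 2146 to 3020, 7054 to 9334 and 8385 to 10663 probe sets. With 1 probe set per gene 1479, 4816 and 5619 passed, since fewer were tested. In mice 1 and 2 alone, lymphomas against before transformation gave 5448 probe sets and 2 of the 10 genes, with fewer mice. A fit of all 3 groups gave 1593 probe sets before transformation against control, and the cause was not tested. With mouse number as a replicate block (paired on numbers both groups share) 2800, 9258 and 8869 probe sets and 4, 6 and 6 of the genes passed, Notch2 and Dtx1 being added in the second comparison. With the set as a block 3732, 11391 and 11184 probe sets and 4, 5 and 6 genes passed, Dtx1 being added in the second. Dtx1 also passed before transformation against control after centring (0.0389) and without before transformation 4 (0.0331).

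Some values that had passed no test over all mice changed sign, and the cause was not tested. Before transformation against control this held in mice 1 and 2 for Rbpj (0.10), in mice 3 and up for Maml1 (0.023), Hes1 (0.50) and Nrarp (0.12), and after quantile normalization for Rbpj (0.028). In lymphomas against before transformation it held with the replicate block for Lfng (-0.0075) and Rbpj (0.021), with the set as a block for Rbpj (0.025), in mice 1 and 2 for Rbpj (0.23) and Nrarp (-0.15), and after quantile normalization and centring for Rbpj (0.057 and 0.059). In lymphomas against control it held with the replicate block and the set as a block for Rbpj (0.012 and 0.0032), in mice 1 and 2 for Rbpj (0.33) and for Nrarp, which passed there (-0.77), in mice 3 and up for Notch2 (0.10) and Hes1 (0.13), and after quantile normalization and centring for Notch2 (0.10 and 0.063) and Rbpj (0.085 and 0.055). Leaving out 1 mouse before transformation against control gave -0.20 to 0.12 for Hes1, -0.16 to 5.4e-06 for Maml1 and -0.047 to 0.061 for Rbpj. It gave -0.083 to 0.017 for Rbpj in lymphomas against before transformation, and -0.12 to 0.070 for Notch2 and -0.082 to 0.038 for Rbpj in lymphomas against control. None of the Notch1 correlations passed under any alternative (0 to 0 leaving out 1 lymphoma). Hes1 was too dim for the filter at the 60th percentile and has no value there.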
